A study of Mus musculus with 23 samples.

Results

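Lymphoid-primed multipotent progenitors (LMPP) lacking both p110α and p110δ were compared with LMPP lacking p110δ alone, so that the groups differed by p110α and both lacked p110δ. The comparison used 6 of the 23 arrays of the series, chosen by their titles. They were 3 arrays of p110αδ DKO LMPP (here DKO) and 3 arrays of p110δ-/- LMPP (here deltaKO). The 3 arrays of p110α-/- LMPP (here alphaKO) entered the fit and the filter on low values for the spread only. The comparison of cell types also used the 9 arrays of haematopoietic stem cells (HSC) of the same 3 genotypes. No wild-type array was used. In each group 1 array was of a female sample and 2 were of male samples, per the labels. The cells were sorted from mouse bone marrow of pooled transplant recipients as lineage-negative, c-Kit-positive, Flk2-positive, CD150-negative and CD48-positive cells, and total RNA was hybridised to an Affymetrix mouse transcriptome array. The labels give no method of deletion and do not say if each array had its own pool of recipients. The p-values therefore measure the spread between these arrays. That spread includes the difference between female and male samples, and between the 2 male arrays of a group it may be technical.

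Class I phosphoinositide 3-kinase (PI3K), of which p110α and p110δ are alternative catalytic subunits, makes the membrane lipid PIP3 downstream of cytokine and growth factor receptors and so activates AKT and mTOR and restrains FOXO transcription factors. p110α is found in most tissues and p110δ mainly in blood cells. LMPP are marrow progenitors that keep lymphoid and granulocyte-monocyte potential and have largely lost the potential to make red cells and platelets.

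Levels are log2 RMA values, in which 1 unit is a 2-fold difference, and differences are DKO minus deltaKO. Each value belongs to a transcript cluster, the array's unit for 1 gene or transcript. Genes were named only where the authors' 6 comparison tables give a single symbol for the cluster, which held for 303 genes, of which 283 passed the filter on low values. These tables were selected on arrays of this series because the clusters differed from wild type, so the named genes are a selected sample and the direction of a list of them is not independent evidence. The sort markers and the genes of p110α and p110δ were not analysed here, so neither the sort nor the deletion was checked at those genes. As a partial check of the label, Tek, an angiopoietin receptor of stem cells, averaged 7.06 in DKO LMPP and 6.61 in deltaKO LMPP, against 10.28 in DKO and 10.03 in deltaKO HSC. Ctsg, the granule protease cathepsin G, averaged 13.95 in DKO LMPP and 12.02 in deltaKO LMPP, against 7.25 and 7.17 in DKO and deltaKO HSC. Ctsg is also a gene of granulocyte-monocyte progenitors, so these levels set LMPP apart from HSC but not from committed myeloid cells. The array medians of the 6 arrays lay between 4.87 and 5.04. The negative control rows had medians of 5.92 to 6.49 on these arrays, and 95th percentiles of 10.73 to 11.84. A value below these levels may therefore be background in part or in full. Correlations were 0.983 to 0.990 among DKO arrays, 0.986 to 0.992 among deltaKO arrays and 0.977 to 0.993 between the groups, so the arrays did not separate by genotype on this measure.

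No transcript cluster passed the test. Of 32978 clusters tested by limma, 0 had an adjusted p below 0.05 (0% called, in each direction), and the smallest adjusted p was 0.231. At an unadjusted p below 0.05, 724 clusters had a higher mean in DKO (2.2%) and 939 a lower mean (2.85%), together 5.04%. The DKO and deltaKO arrays did not overlap for 1271 clusters that were higher in DKO (3.85%) and for 1744 that were lower (5.29%). The median difference over all clusters was -0.026, and 378 clusters were at least 2-fold higher and 353 at least 2-fold lower. The 95% interval of a difference reached a median of 0.468 to each side, and of 0.769 for the nameable genes. These widths are no limit of detection for a call, since Wfdc21, with a difference of 3.57, had an adjusted p of 0.757 (limma). The filter took the mean over all 9 LMPP knockout arrays, so some genes passed it through the alphaKO arrays. Among the 283 nameable genes, 201 had a higher mean in DKO (71%, against 45% of all clusters) and 82 a lower mean (29%, against 55%). Of these genes, 49 were higher without overlap (17.3%) and 11 were lower without overlap (3.89%). With the filter and the fit on the 6 compared arrays alone, 193 of 273 had a higher and 80 a lower mean. For the 54 nameable genes that neither LMPP table of p110δ loss or of double loss lists, 32 had a higher mean, and 2 were higher and 2 lower without overlap (3.7% each).

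**Figure D1:**
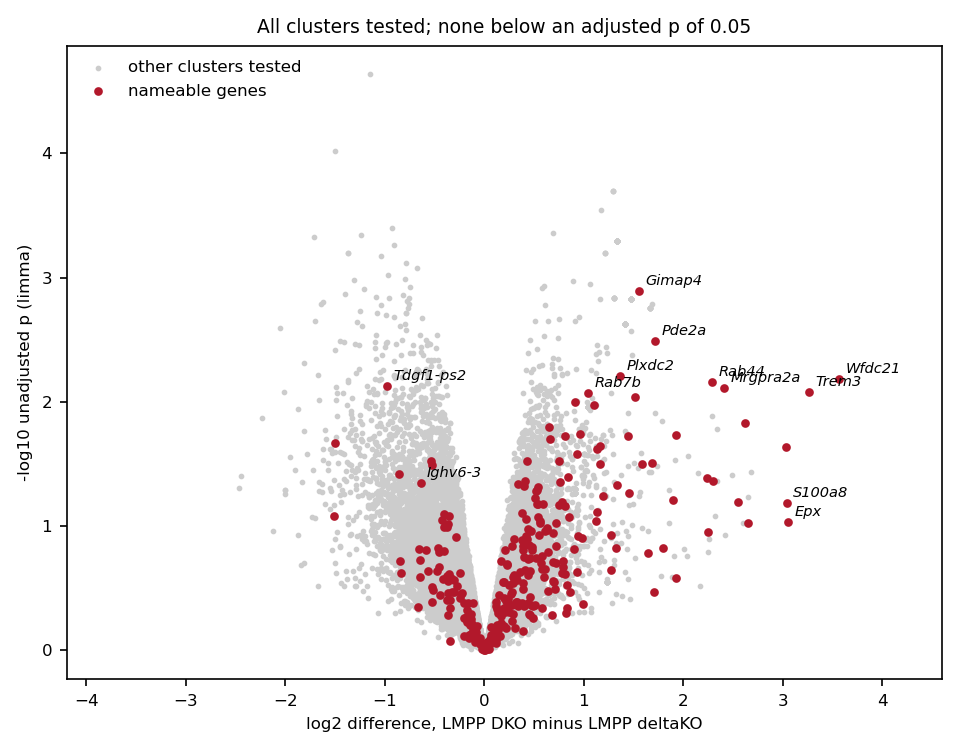
Each point is 1 of 32978 transcript clusters, with the log2 difference of DKO minus deltaKO on the horizontal axis and -log10 of the unadjusted limma p on the vertical axis; red points are the 283 nameable genes. The labelled genes are among those described in the text, and none of the points passed an adjusted p of 0.05, the smallest being 0.231.

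Of the 12 leading genes with higher values in DKO, Wfdc21 and Trem3 belong to the neutrophil list, Gimap4 to the T and NK cell list, Rab44 to the vesicle trafficking list and Plxdc2 to the HSC list. Gimap4, a GTPase of the immunity-associated family found in lymphocytes (cluster TC0600000566.mm.1, chromosome 6), measured 7.91, 7.22 and 7.79 on the DKO arrays, against 6.63, 5.97 and 5.65 on the deltaKO arrays. Its deltaKO values lay near the negative control medians of 5.92 to 6.49. Every DKO array lay above every deltaKO array, and the difference was 1.56 (SE 0.33, 95% interval 0.80 to 2.31), with an unadjusted limma p of 0.00128 and an adjusted p of 0.370. Pde2a, a phosphodiesterase that breaks down cAMP and cGMP (chromosome 7), measured 10.11, 10.21 and 9.82 in DKO, against 8.53, 8.70 and 7.76 in deltaKO. Its difference was 1.72 (SE 0.42), the groups did not overlap, and the adjusted p in limma was 0.537. Both genes differed by a like amount between the 2 male DKO arrays and the 2 male deltaKO arrays (1.71 for Gimap4 and 1.82 for Pde2a) and between the female arrays (1.25 and 1.52).

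Several other leading genes had larger differences and a wider spread. Wfdc21, a small secreted WAP-domain protein of the neutrophil list (chromosome 11), measured 11.69, 14.56 and 11.29 in DKO, against 8.77, 9.85 and 8.21 in deltaKO, a difference of 3.57 (SE 1.00, adjusted p 0.757, limma). Trem3, an activating receptor of myeloid cells (chromosome 17), measured 11.11, 12.60 and 9.26 in DKO, against 7.40, 8.58 and 7.19 in deltaKO, a difference of 3.27 (SE 0.96). In both genes the groups did not overlap, and the female array was the highest of its group. Rab44, a large Rab GTPase (chromosome 17), measured 12.95, 13.80 and 12.92 in DKO, against 10.92, 11.64 and 10.25 in deltaKO, a difference of 2.29 (SE 0.65). Mgam, the digestive enzyme maltase-glucoamylase (chromosome 6), measured 7.62, 9.83 and 7.56 in DKO, against 5.20, 6.21 and 5.74 in deltaKO, a difference of 2.62 (SE 0.86). Mrgpra2a, a Mas-related G protein-coupled receptor, differed by 2.41. Atp8b4, a lipid flippase, differed by 1.51, and B4galnt1, an enzyme that builds complex gangliosides, by 1.1. Rab7b, a small GTPase of late endosomes, differed by 1.04, and Fndc3b, a fibronectin type III domain protein, by 0.91. The groups did not overlap for any of these genes, which was part of the rule that chose them, and the adjusted p in limma was between 0.757 and 0.888.

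Only 4 genes with lower values in DKO met the same rule, which asked for at least 1.5-fold and no overlap. The pseudogene Tdgf1-ps2 (chromosome 17) measured 5.54, 5.59 and 5.21 in DKO, against 5.97, 7.02 and 6.28 in deltaKO, a difference of -0.98 (SE 0.28, adjusted p 0.812, limma). Ighv6-3, an immunoglobulin heavy chain variable segment (chromosome 12), measured 5.77, 5.94 and 5.78 in DKO, against 6.15, 6.63 and 6.63 in deltaKO, a difference of -0.64 (SE 0.27). Most values of Tdgf1-ps2 and Ighv6-3 lay near or below the negative control medians of 5.92 to 6.49. Dusp4, a phosphatase that switches off MAP kinases (chromosome 8), measured 7.09, 6.86 and 6.61 in DKO, against 7.54, 7.64 and 7.34 in deltaKO, a difference of -0.65 (SE 0.42). Nr4a1, an immediate early nuclear receptor (chromosome 15), measured 14.37, 14.37 and 14.49 in DKO, against 14.53, 15.94 and 14.71 in deltaKO, a difference of -0.65 (SE 0.45). The DKO arrays of Nr4a1 lay close together, and most of the difference came from the female deltaKO array, since the male arrays differed by -0.19.

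**Figure D2:**
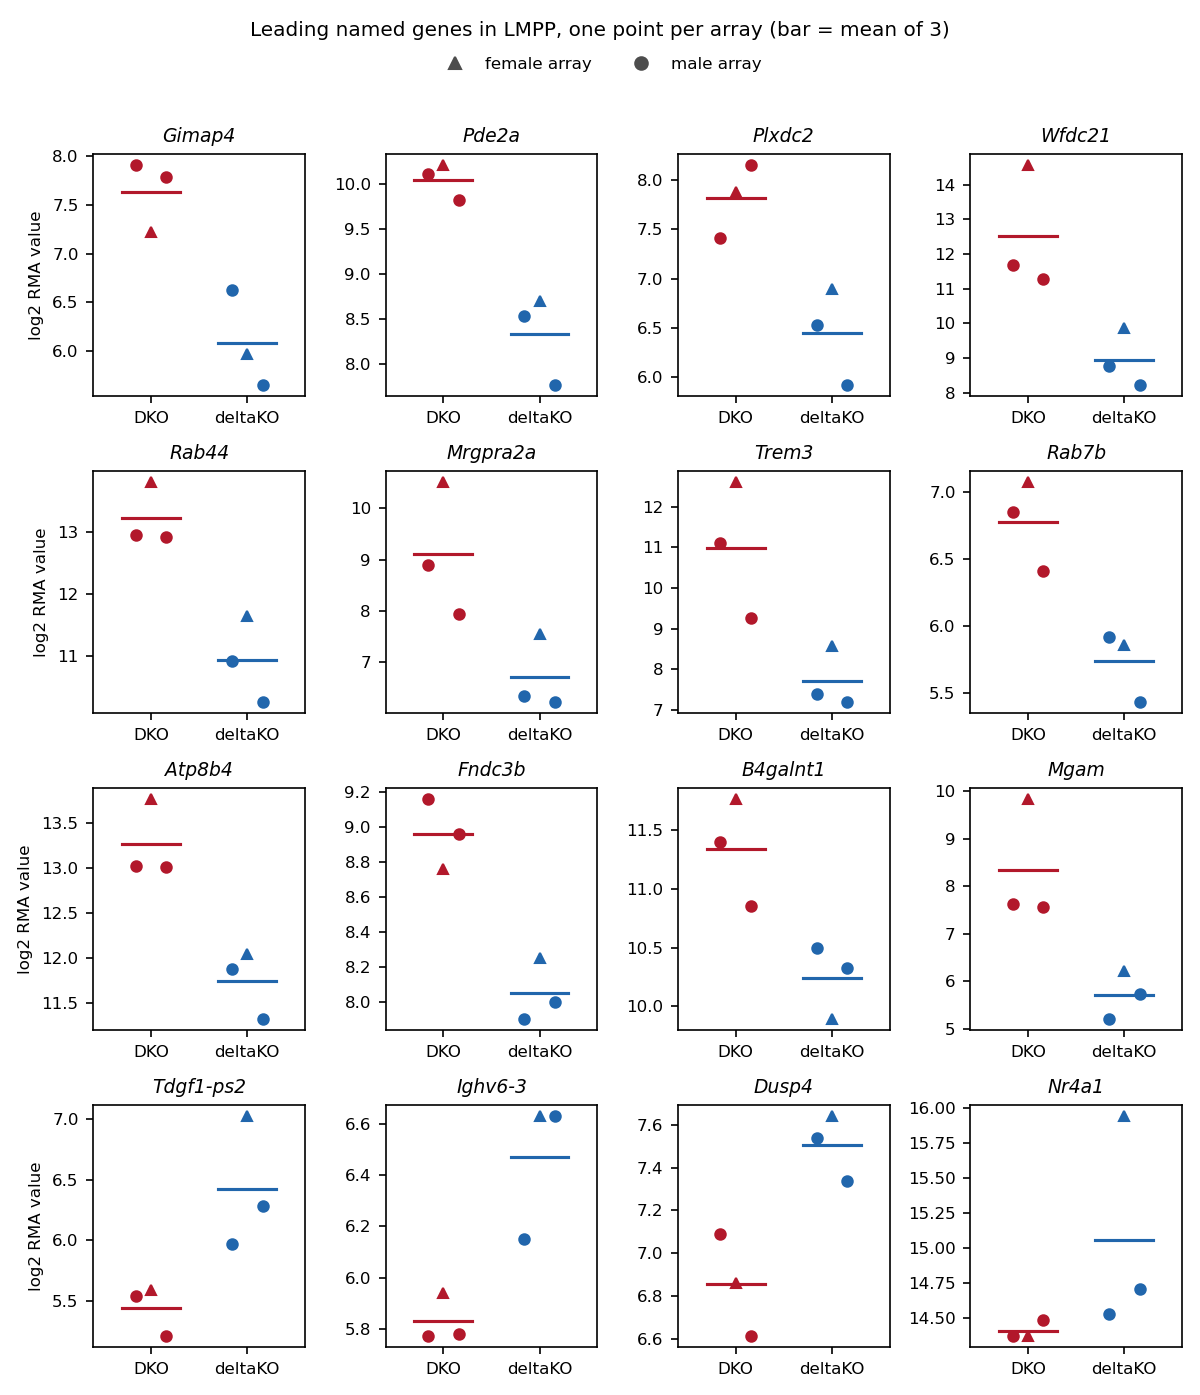
Log2 RMA values of the 12 leading genes with a higher mean and the 4 with a lower mean in DKO, 1 point per array (triangles female, circles male), with DKO at the left and deltaKO at the right of each panel and bars at the mean of 3 arrays. In every panel the groups are separate, and in several panels, such as Wfdc21 and Mgam, the female array is the highest of its group.

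Granulocyte and monocyte lineage genes had the largest list medians. All 18 tested members of the neutrophil granule and secretory list had a higher mean in DKO, 0 passed the test, and 5 did not overlap between the groups, against 3.85% of all clusters and 17.3% of nameable genes. The lowest member on each array lay at 4.47 to 4.67 in DKO and 4.09 to 4.85 in deltaKO, below the filter of 4.94. In alphaKO it lay at 5.14 to 7.15, so some of the 18 may have passed the filter only through the alphaKO arrays. The median difference of the list was 1.36, and all 18 genes are listed by the LMPP tables, which were selected on these deltaKO and DKO arrays. The mean level of the list was 7.85, 10.24 and 7.49 on the DKO arrays, against 6.92, 7.76 and 6.31 on the deltaKO arrays, so the groups overlapped and the female DKO array lay far above the rest. Without that array the list median was 0.31, and without the female arrays of both groups it was 0.69. Compared by sex, the median was 2.52 between the female arrays and 0.69 between the male arrays. RMA values have no 0, so no marker can be called absent, and in bulk RNA fewer cells of a type and less RNA per cell cannot be told apart.

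Calprotectin and cathelicidin genes of the neutrophil list overlapped between the groups. S100a8, a subunit of calprotectin, averaged 13.41 ± 2.72 in DKO and 10.37 ± 1.97 in deltaKO (SD, n = 3 each), with 16.54 on the female DKO array and 12.51 on the female deltaKO array. Its difference was 3.04 (SE 1.44, 95% interval -0.25 to 6.32) in the fit without sex. With sex as a covariate its SE was 0.88 and its adjusted p 0.848 (limma). The groups overlapped, since the female deltaKO array lay above both male DKO arrays. S100a9, the other subunit, differed by 2.25 and Camp, the cathelicidin precursor, by 2.65, with the same overlap. Within each sex, the DKO arrays of S100a8, S100a9 and Camp lay above the deltaKO arrays, with 1 female array per group. Trem1, a receptor that amplifies inflammatory signals in neutrophils and monocytes, measured 8.32, 9.04 and 7.28 in DKO, against 6.74, 7.14 and 6.42 in deltaKO, without overlap (difference 1.45, SE 0.50). Pglyrp1, a granule protein that binds bacterial peptidoglycan, measured 9.07, 11.69 and 9.14 in DKO, against 8.20, 8.01 and 7.98 in deltaKO, also without overlap. In alphaKO LMPP the mean level of the list was 9.88, 12.17 and 12.76.

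Genes of earlier granulocyte-monocyte progenitors had their difference on the male arrays as well. The list held 4 tested genes, all with a higher mean in DKO, and 2 of them did not overlap between the groups (3.85% of all clusters). Its mean level was 12.60, 13.83 and 12.17 in DKO, against 10.22, 12.12 and 10.26 in deltaKO, and its median difference was 2.08, 2.36 between male arrays and 1.52 between female arrays. Ctsg measured 13.91, 14.40 and 13.54 in DKO, against 11.48, 12.72 and 11.88 in deltaKO, a difference of 1.92 (SE 0.66, adjusted p 0.919, limma). Ms4a3, a membrane protein that marks granulocyte-monocyte progenitors, measured 14.17, 16.23 and 13.65 in DKO, against 10.54, 13.44 and 10.96 in deltaKO, a difference of 3.03 (SE 1.1). Ly6c2, part of the Ly6C antigen of monocytes and their precursors, differed by 2.24, and the female deltaKO array lay above both male DKO arrays. Cebpe, the transcription factor of late granulocyte development, differed by 0.79 (SE 0.59). Ms4a3 and Ly6c2 are not listed by the LMPP deltaKO or DKO tables. The myeloid lists also hold genes of mature granulocytes, which a lineage gate is meant to remove, and the part of such cells in the results was not tested.

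The upstream sequences of the 3 members of these myeloid lists with the smallest p and a single RefSeq start site are shown because these genes had higher values in DKO together. Each is the 250 bases before the start of transcription, read 5′ to 3′ on the gene's strand, from RefSeq on GRCm38.p6. Capitals mark TTNNGNAA, or TTNCNNAA which is the same letters on the other strand, a pattern of the kind bound by C/EBP factors.
Ctsg (chr14:56102575-56102824, minus strand): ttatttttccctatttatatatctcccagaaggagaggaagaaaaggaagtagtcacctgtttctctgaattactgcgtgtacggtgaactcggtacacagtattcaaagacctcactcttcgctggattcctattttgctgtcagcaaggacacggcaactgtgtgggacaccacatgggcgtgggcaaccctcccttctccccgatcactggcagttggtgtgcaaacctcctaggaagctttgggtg
Trem1 (chr17:48232489-48232738, plus strand): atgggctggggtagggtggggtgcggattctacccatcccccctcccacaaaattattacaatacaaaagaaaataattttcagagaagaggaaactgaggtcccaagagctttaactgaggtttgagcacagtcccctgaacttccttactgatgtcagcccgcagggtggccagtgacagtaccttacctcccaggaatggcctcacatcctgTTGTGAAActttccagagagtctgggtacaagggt
Ms4a3 (chr19:11640852-11641101, minus strand): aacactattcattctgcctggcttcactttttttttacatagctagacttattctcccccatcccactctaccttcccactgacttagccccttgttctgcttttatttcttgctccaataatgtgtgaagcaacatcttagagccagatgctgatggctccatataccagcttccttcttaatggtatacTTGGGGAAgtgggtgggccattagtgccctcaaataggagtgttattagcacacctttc
The pattern occurred once in Trem1, as TTGTGAAA starting 35 bases before the start site, and once in Ms4a3, as TTGGGGAA starting 59 bases before it. These letters are not in the window of Ctsg. Of the neutrophil genes with a window, 12 of 15 held the pattern (80.0%), of the granulocyte-monocyte progenitor genes 2 of 3, of the mast cell, basophil and eosinophil genes 1 of 5 and of the immediate early genes 1 of 4. The pattern was in 36.8% of all 32851 upstream windows, in 40.3% of genes with a window and in 43.1% of the 197 nameable genes with one. A gene counted if any of its windows held the pattern, so genes with more start sites were favoured. Binding by C/EBP factors, and any part of it in these differences, was not tested.

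Other myeloid markers also had higher means in DKO. The monocyte, macrophage and dendritic cell list held 4 tested genes, all with a higher mean and none without overlap, and its median difference was 1.3, or 0.42 without the female DKO array. Compared by sex, the median was 2.08 between the female arrays and 0.73 between the male arrays, where all 4 were higher. Its mean level was 6.50, 8.57 and 5.96 in DKO, against 5.36, 6.53 and 5.48 in deltaKO. Vcam1, an adhesion molecule of macrophages and endothelium, measured 5.22, 8.03 and 5.85 in DKO, against 4.52, 5.62 and 5.13 in deltaKO. Clec7a, the fungal glucan receptor Dectin-1, differed by 1.65 (1.75 between female and 1.6 between male arrays), and Slc40a1, the iron exporter ferroportin, by 0.63. Clec4a2, a C-type lectin of the same list, differed by 1.32.

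All 5 tested members of the mast cell, basophil and eosinophil list had a higher mean in DKO, with a median of 1.69. The median was -0.13 without the female DKO array, a fit that still held the female deltaKO array. Compared by sex, it was 2.37 between the female arrays and 0.54 between the male arrays, where 4 of 5 were higher. Epx, eosinophil peroxidase, measured 6.52, 12.13 and 5.86 in DKO, against 4.43, 6.57 and 4.34 in deltaKO. Ear1, an eosinophil ribonuclease, measured 8.01, 14.15 and 7.43 in DKO, against 8.39, 8.86 and 6.57 in deltaKO, and its difference of 1.92 became -0.22 without that array. Hdc, which makes histamine, measured 7.16, 9.24 and 7.11 in DKO, against 6.25, 6.87 and 5.34 in deltaKO, without overlap (1 of 5, against 3.85% of all clusters and 17.3% of nameable genes). Between the male arrays Epx differed by 1.8, Hdc by 1.35 and Ear1 by 0.24. Cpa3, the mast cell carboxypeptidase, differed by 0.68 (SE 1.02).

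**Figure D3:**
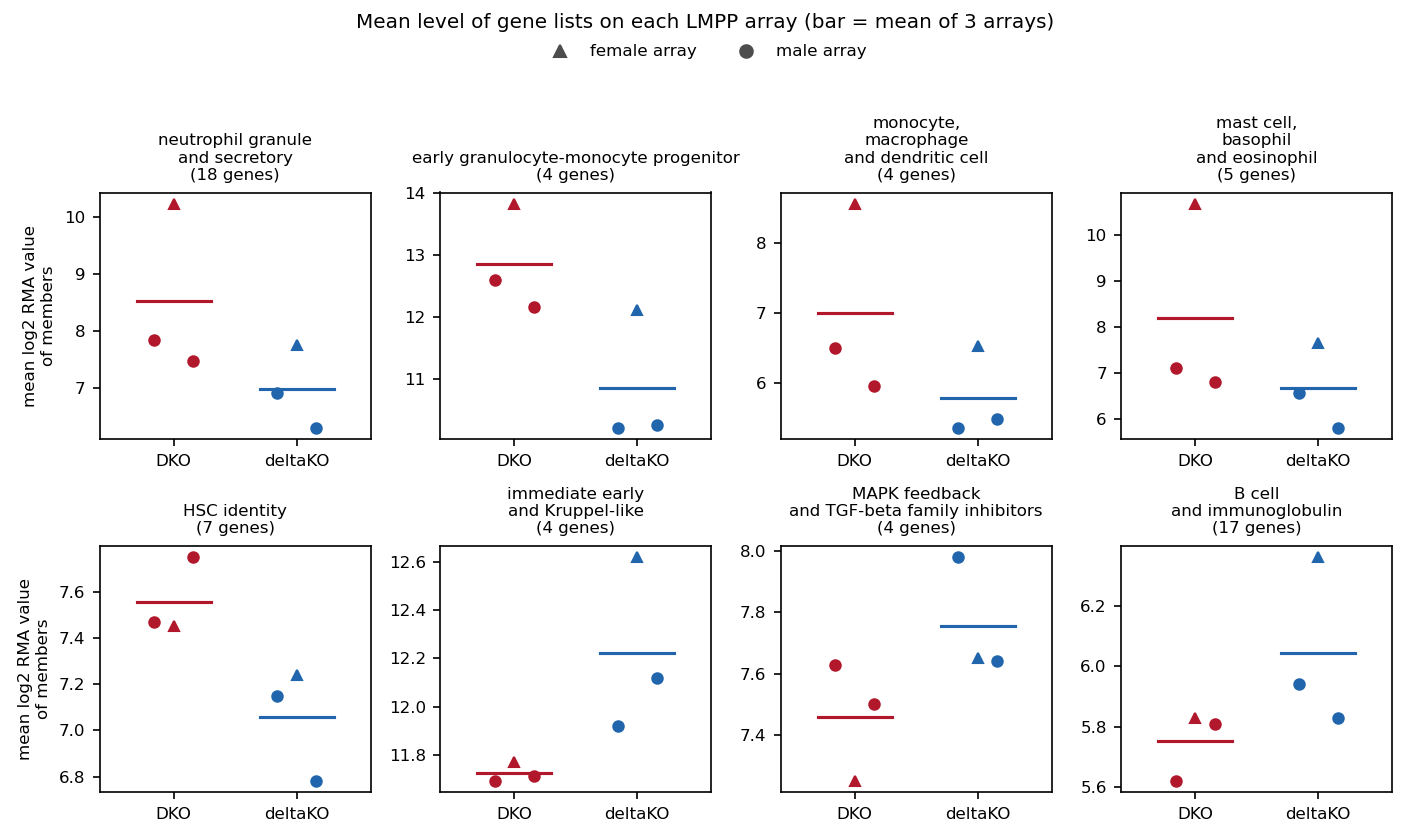
Mean log2 RMA value of the tested members of 8 gene lists on each LMPP array (triangles female, circles male; DKO at the left, deltaKO at the right, bars at the mean of 3 arrays). The female DKO array stands far above the male DKO arrays in the neutrophil, macrophage and mast cell panels, while all DKO arrays lie above all deltaKO arrays in the granulocyte-monocyte progenitor and HSC identity panels and below them in the immediate early panel.

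Stem cell genes had higher means in DKO. All 7 tested members of the HSC identity list had a higher mean, 0 passed the test and 1 did not overlap (3.85% of all clusters and 17.3% of nameable genes), with a median difference of 0.46, beside 0.29 over the nameable genes. The mean level of the list was 7.47, 7.45 and 7.75 in DKO, against 7.15, 7.24 and 6.78 in deltaKO, without overlap. Plxdc2, a plexin-domain membrane protein, measured 7.41, 7.88 and 8.15 in DKO, against 6.53, 6.90 and 5.92 in deltaKO, a difference of 1.37 (SE 0.38, adjusted p 0.739, limma). Selp, the adhesion receptor P-selectin, measured 12.67, 12.23 and 12.84 in DKO, against 12.24, 11.77 and 12.05 in deltaKO. Ndrg2 differed by 0.63, Tek by 0.46 and Ncam2 by 0.02. Compared by sex, the list median was 0.29 between the female arrays, where 5 of 7 were higher, and 0.63 between the male arrays, where all 7 were. For the members that neither LMPP table of p110δ loss or of double loss lists, the median was 0.24. The male deltaKO array with the lowest level, replicate 3, weighed on this list, whose median was 0.15 without it, and Tek then differed by -0.022.

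Immediate early genes and feedback inhibitors of MAP kinase signalling had lower means in DKO. All 4 tested members of the immediate early and Kruppel-like list had a lower mean, with a median of -0.50, and 1 did not overlap between the groups (5.29% of all clusters and 3.89% of nameable genes). The median was -0.73 between the female arrays and -0.31 between the male arrays, and -0.3 without the female deltaKO array. The mean level of the list was 11.69, 11.77 and 11.71 in DKO, against 11.92, 12.62 and 12.12 in deltaKO. Klf4, a Kruppel-like factor of monocytes and stressed cells, differed by -0.59 (SE 0.38). Klf2, which is induced by FOXO1 in lymphocytes, differed by -0.40 (SE 0.26), and Zfp36l1, which destabilises mRNAs, by -0.34 (SE 0.28). Of the MAPK feedback and TGF-beta inhibitor list, 3 of 4 had a lower mean, with a median of -0.28. Dusp4 and Dusp10, both MAP kinase phosphatases, did not overlap between the groups (2 of 4, against 5.29% of all clusters and 3.89% of nameable genes). Both are listed by the LMPP table of double loss. For the members that neither LMPP table of p110δ loss or of double loss lists, the median was -0.06. Dusp10 measured 6.85, 6.44 and 6.76 in DKO, against 6.99, 7.31 and 6.97 in deltaKO.

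Immunoglobulin segments were mostly lower in DKO at low levels. Of 17 tested members of the B cell and immunoglobulin list, 14 had a lower mean and 3 a higher mean, with a median of -0.24, and 3 were lower without overlap (5.29% of all clusters). The other 5 nameable members were below the filter. The mean level was 5.62, 5.83 and 5.81 in DKO, against 5.94, 6.36 and 5.83 in deltaKO. Ighv1-12 had the largest difference of the list, with 10.57, 9.90 and 10.66 in DKO, against 11.31, 13.81 and 10.55 in deltaKO (difference -1.51, SE 0.77). That difference was -3.91 between the female arrays and -0.31 between the male arrays. Variable segments of the same family, such as Ighv1, can be alike in sequence, so the signal of one may include others.

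Few genes of the pathways that PI3K controls could be named, 6 of 49 in the PI3K list and 10 of 35 among FOXO targets. In the list of PI3K, insulin and mTOR signalling, 5 of 6 tested genes had a higher mean and 0 passed the test, with a median of 0.22, or -0.12 between the female arrays and 0.19 between the male arrays. Deptor, an inhibitor of mTOR, measured 9.27, 9.51 and 9.01 in DKO, against 9.04, 8.70 and 8.84 in deltaKO, a difference of 0.40 (95% interval 0.00 to 0.80). Irs2, an insulin receptor adaptor, differed by 0.52 (SE 0.36), Sgk1, a kinase related to AKT, by 0.32 (SE 0.27) and Insr, the insulin receptor, by 0.12 (SE 0.26). Of 10 FOXO targets, 7 had a higher and 3 a lower mean, with a median of 0.10 that was -0.08 without DKO replicate 3, -0.22 between the female arrays and 0.18 between the male arrays. Pmaip1, the apoptosis activator Noxa, differed by 0.85 (95% interval -0.14 to 1.84), and Bcl6, a transcriptional repressor, by 0.38 (SE 0.19).

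The T and NK cell list held 2 tested genes, Gimap4 and Gimap6, both with a higher mean and a median of 0.82. Gimap6 differed by 0.08 (SE 0.42). For p53 targets 2 of 5 genes had a higher mean, with a median of -0.04 that was 0.01 with each array centred on its median and 0.03 without deltaKO replicate 1, and Plk2 differed by -0.52 and Plk3 by -0.28, both polo-like kinases. For NF-kB and interleukin-1 genes 5 of 9 had a higher mean, with a median of 0.05 that was -0.09 without deltaKO replicate 1, -0.05 without deltaKO replicate 3 and 0.28 without the female deltaKO array. Among them Thbs1, the matrix protein thrombospondin, averaged 6.92 ± 0.54 in DKO and 7.78 ± 0.65 in deltaKO (SD, n = 3 each). The groups of Thbs1 overlapped, and its difference was -0.86 (SE 0.35). For stress genes 3 of 5 had a higher mean, with a median of 0.20 that was -0.03 without the female DKO array and 0.61 without DKO replicate 3, led by Gadd45g at 0.72 (SE 0.52) and Gadd45a at 0.57 (SE 0.41). Of the interferon response genes, Ifit2, which binds viral RNA, differed by 0.54 without overlap, and Ddx58, the RNA sensor RIG-I, by -0.48.

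Cell cycle, trafficking and adhesion genes were tested on the same arrays. Of 7 genes of G2 and M phase, 5 had a higher mean, with a median of 0.12 that was 0.61 between the female arrays, -0.20 between the male arrays and -0.03 without deltaKO replicate 1. Cenpe, a kinesin of the kinetochore, measured 9.84, 10.24 and 9.89 in DKO, against 9.58, 9.42 and 9.82 in deltaKO. Top2a, the DNA topoisomerase of dividing cells, differed by 0.12 (SE 0.15), and Cdc6, a replication licensing factor, by 0.12 (SE 0.25). Of 7 lysosome and vesicle trafficking genes, 5 had a higher mean, with a median of 0.34. Vps13c, a lipid transfer protein, measured 9.24, 9.20 and 9.17 in DKO, against 8.90, 8.94 and 8.76 in deltaKO, a difference of 0.34 (SE 0.14). Vps33b, a vesicle tethering subunit, averaged 9.92 ± 0.08 in DKO and 10.34 ± 0.19 in deltaKO (SD, n = 3 each), a difference of -0.42 (SE 0.22). Of 7 adhesion genes, 6 had a higher mean, with a median of 0.44 that was 0.16 without the female DKO array, 0.47 between the female arrays and 0.41 between the male arrays. Cd44, the hyaluronan receptor, was the exception at -0.31 (SE 0.26). No erythroid, megakaryocyte or mitochondrial gene of the lists could be named.

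**Figure D4:**
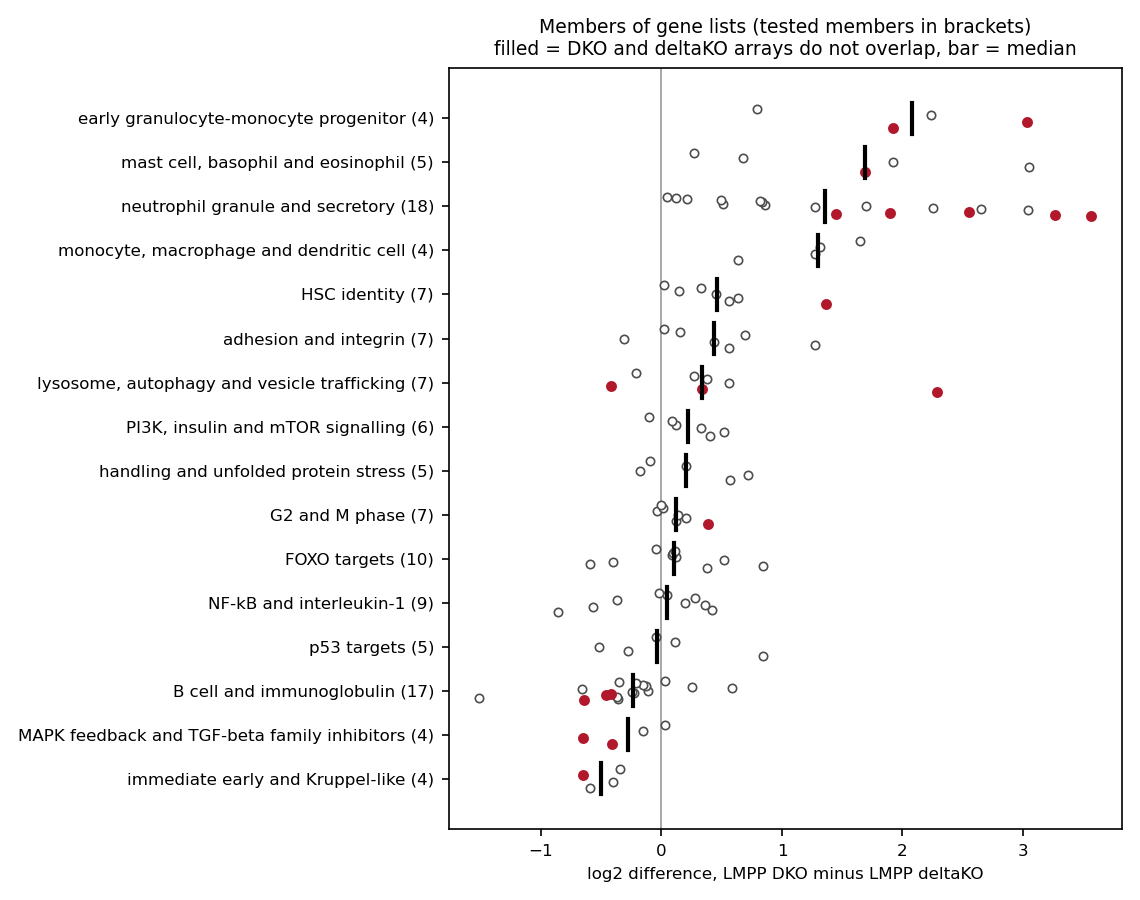
Log2 difference of DKO minus deltaKO for each tested member of the lists with at least 4 tested members, 1 point per gene, filled where the DKO and deltaKO arrays do not overlap, with a bar at the list median. The 4 myeloid lists lie at the top with medians of 1.3 to 2.08 and the immediate early list at the bottom at -0.50, while most other medians lie near 0.

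The same genotype difference in HSC was used to ask where LMPP differed. In HSC, 3 DKO arrays against 3 deltaKO arrays also gave 0 calls (0% called), with a smallest adjusted p of 0.109. The difference between the cell types passed the test for 0 clusters (0% called, smallest adjusted p 0.997), and 1035 had an unadjusted p below 0.05 (3.14%). Of 276 nameable genes, 134 had a higher mean in DKO HSC (48.6%). Gimap4 and Pde2a had about the same difference in both cell types, 1.56 in LMPP and 1.56 in HSC for Gimap4, and 1.72 and 1.3 for Pde2a. The neutrophil list had a median of 1.36 in LMPP and 0.00 in HSC, where 8 of 17 genes had a higher mean. Some of its genes had low HSC levels, such as Lcn2 (5.61 in DKO and in deltaKO) and Trem3 (6.35 and 6.32). Others were higher, such as S100a8 (8.87 and 8.98). The negative control medians were 5.92 to 6.49 on the LMPP arrays and are not given here for HSC. At such low levels a difference near 0 in HSC says little. All 18 genes of that list, and 229 of the 283 nameable genes, are listed by LMPP tables selected on these LMPP arrays. A larger difference in LMPP than in HSC was therefore favoured by how the genes were chosen. The HSC identity list had a median of 0.46 in LMPP and 0.68 in HSC. No difference between the cell types in a named gene passed the test.

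Of the 6 genes chosen for the smallest unadjusted p of that difference, Rab44, Fndc3b, Sh2b2 and Rtn4ip1 were on the side of LMPP. Rab44 differed by 2.29 in LMPP and by -0.19 in HSC, where its level averaged 6.65 in DKO and 6.84 in deltaKO (difference of differences 2.48, SE 0.77, adjusted p 0.997, limma). Fndc3b differed by 0.91 in LMPP and -0.16 in HSC, and Sh2b2, an adaptor of receptor tyrosine kinases, by 0.81 and -0.13. Rtn4ip1, a mitochondrial protein, measured 9.16, 9.55 and 9.02 in DKO LMPP, against 9.08, 8.97 and 9.01 in deltaKO LMPP, and differed by -0.69 in HSC. Pim2, a survival kinase, differed by 0.51 in LMPP and 1.52 in HSC. Ncam2, a cell adhesion molecule, differed by 0.02 in LMPP and 1.94 in HSC, and its LMPP level was 5.01 to 5.05 in DKO and 4.96 to 5.07 in deltaKO, near the array median.

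**Figure D5:**
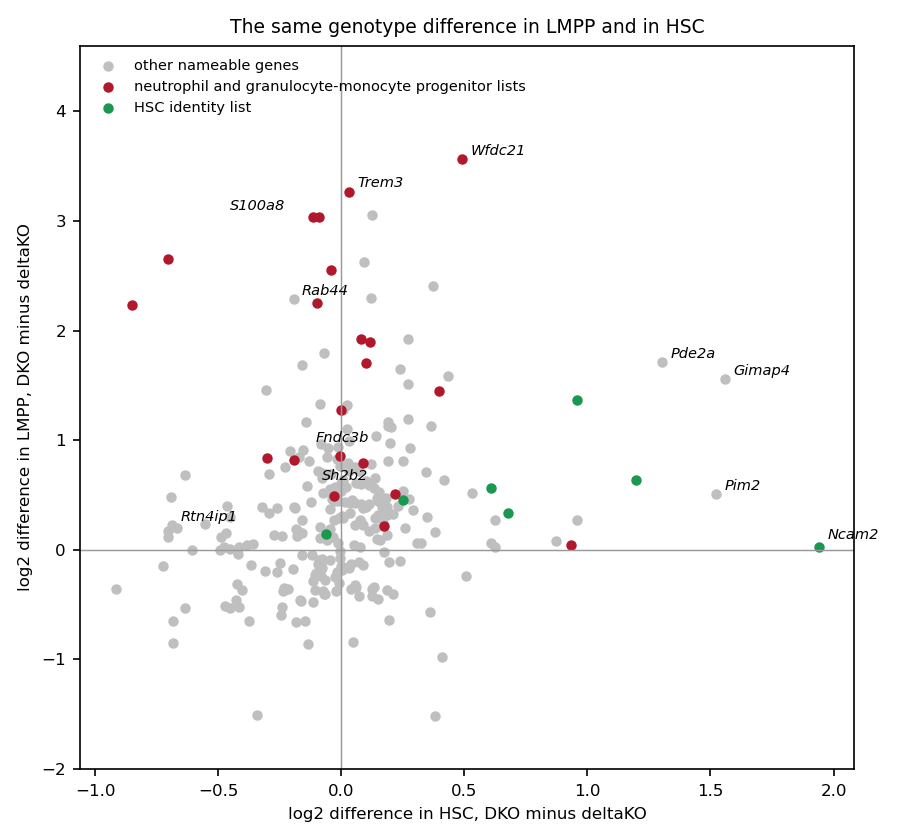
Log2 difference of DKO minus deltaKO in LMPP (vertical axis) against the same difference in HSC (horizontal axis), 1 point per nameable gene tested in both, with the neutrophil and granulocyte-monocyte progenitor lists in red and the HSC identity list in green. The red points with the highest LMPP differences, such as Wfdc21 at 3.57 and Trem3 at 3.27, have HSC differences of 0.49 and 0.03, while Gimap4 and Pde2a lie high on both axes. Trem3 had low levels in HSC, with means of 6.35 in DKO and 6.32 in deltaKO. Most of the nameable genes, and all of the neutrophil list, are listed by LMPP tables that were selected on these LMPP arrays.

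The clusters with the smallest p carried no symbol in the tables. TC0300002330.mm.1 (chromosome 3) measured 5.37, 5.68 and 5.66 in DKO, against 6.66, 6.81 and 6.68 in deltaKO, a difference of -1.15 (SE 0.14, unadjusted p 2.31e-05, adjusted p 0.231, limma). TC1000002186.mm.1 (chromosome 10) measured 5.68, 5.77 and 6.04 in DKO, against 7.07, 7.41 and 7.52 in deltaKO, a difference of -1.50 (SE 0.22). On the higher side, TC0600001857.mm.1 (chromosome 6), whose values are the same in 3 clusters, differed by 1.29 (SE 0.21). TC0400002994.mm.1 (chromosome 4) measured 5.58, 5.63 and 6.14 in DKO, against 4.54, 4.90 and 4.38 in deltaKO. The groups of all 4 clusters did not overlap. Each of the 4 lay near or below the negative control medians of 5.92 to 6.49 in DKO, in deltaKO or in both. Whether these transcripts were expressed was not tested.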

How the data were processed

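Total RNA of sorted LMPP was measured on 1 array per sample. The deposited value table holds log2 RMA values that the authors made with Expression Console, per the labels; Transcriptome Analysis Console is named in the submitters' processing notes. For versions, genome build and annotation release nothing is given in the sources used here. From the authors' comparison tables only symbols were used; the deposited signed linear fold changes (a score per cluster, per the file headers) and p-value columns were not.

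Of 72688 rows, 6732 array controls were left out, and clusters with a mean over 9 arrays of at least log2 4.94, the median, were tested (32978 of 65956). limma 3.58.1 (lmFit and eBayes, R 4.3.3) fitted 1 mean per genotype on the 9 LMPP knockout arrays, where alphaKO arrays add only to the spread, with Benjamini-Hochberg adjustment over all clusters and calls at 0.05. The difference between cell types used the 18 knockout arrays. Scripts were tested on simulated data. The number of arrays limits the precision. Figures used Python 3.11.15 with matplotlib 3.10.9.

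The comparison, the 22 gene lists and the tests were chosen with earlier results of these data known. Named genes were, per direction, the 12 nameable genes with the smallest unadjusted p among those of at least 1.5-fold without overlap (none were called), up to 4 members of each list by p, up to 3 abundant markers, 6 genes for the cell type difference, and 2 unnamed clusters per direction. Upstream windows came from RefSeq. Alternatives were other filters, normalizations, covariates, array weights and single arrays left out.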

Additional observations from a re-analysis of the deposited data

How the results depend on the processing

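No transcript cluster passed an adjusted p of 0.05 under any alternative run, in the LMPP comparison or in the difference between cell types. DKO and deltaKO arrays could not be paired one by one because the labels give them no shared replicate number. Sex, which was balanced over the groups, was a covariate in 1 alternative, with a smallest adjusted p of 0.388 (limma). The SE was then 0.70 for Wfdc21 (1.00 without it) and 0.69 for Rab44 (0.65 without it). HSC and LMPP arrays of a genotype and sex carry adjacent serial numbers in their titles, which the labels do not call pairs, and the deviations of 8 of the 9 such pairs correlated above 0.1 (-0.14 to 0.38). With that replicate block, chosen after seeing the data, 0 clusters differed between the cell types, 1516 at an unadjusted p below 0.05, with a smallest adjusted p of 0.925. Without a filter 1113 clusters were higher and 1763 lower at an unadjusted p below 0.05, and 2480 differed between the cell types. With the filter at the 75th percentile the counts were 448 and 453, and 6 nameable genes were lower without overlap. With each array centred on its median 615 were lower. With single arrays left out, 570 to 1126 were higher and 561 to 1665 lower, 57 to 94 nameable genes were higher and 16 to 25 lower without overlap, and 860 to 1735 clusters differed between the cell types. The lower count was 561 without the female DKO array, 617 without the female deltaKO array, 1636 without DKO replicate 3 and 1665 without deltaKO replicate 1, and the higher count was 1126 without DKO replicate 3. Between the cell types the count was 1567 without LMPP DKO replicate 3 and 1735 without LMPP deltaKO replicate 1. Without the female arrays, chosen after seeing the data, 482 were lower, and 103 nameable genes were higher and 32 lower without overlap. Fewer arrays separate more easily.

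Over 81 named genes and 19 settings, 1434 of 1462 values kept their direction. Other filters, and sex as a covariate in balanced groups, leave the difference between the group means of a gene as it was. Under such settings the direction could not change, so this count overstates how far the directions were tested. With array weights the differences were -0.019 for Top2a, -0.063 for Aspm, -0.22 for Bub1, 0.19 for Spry2 and -0.24 for Bambi. Without the female arrays they were -0.001 for Gadd45g, -0.017 for Ptgs2, -0.20 for Gadd45b, -0.28 for Bub1, 0.24 for Spry2 and -0.46 for Bambi. With single arrays left out the ranges were -0.30 to 0.26 for Bambi, -0.069 to 0.53 for Bub1, -0.10 to 0.29 for Cdc6, -0.10 to 0.31 for Cdkn1a, -0.27 to 1.49 for Cpa3, -0.22 to 3.14 for Ear1, -0.19 to 0.61 for Gadd45b, -0.091 to 0.32 for Gimap6, -0.16 to 0.44 for Insr, -0.52 to 0.48 for Spry2 and -0.022 to 0.74 for Tek. The cause of these changes was not tested.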

Other observations

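Chromosome 14 held more clusters at an unadjusted p below 0.05 than the array as a whole, 112 of 1346 (8.32%), of which 86 were lower in DKO. Of these, 34 lay in a block of 60 adjacent tested clusters, chosen after seeing the data, with a median difference of -0.35. The mean level of the block was 7.19, 7.14 and 7.27 in DKO, against 7.46, 7.52 and 7.51 in deltaKO. The block was bounded by clusters that were lower on these same arrays, so the lack of overlap is no separate evidence. Its clusters are not separate observations either, as the median correlation between them over the 6 arrays was 0.58. None of these clusters passed the test.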
